A study of Caenorhabditis elegans with 5 samples.

Results

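The *ugt* genes of *C. elegans* encode UDP-glycosyltransferases (UGTs), and 67 of the 25393 genes measured here belong to them, chosen as every row whose WormBase gene ID has a symbol starting with *ugt*. Of the 67, 19 had 5 or more CPM (tags of a gene per 1000000 tags of its library) in 2 or more of the 5 libraries and are described in full, and 48 stayed below that level.

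UGTs attach a sugar to small fat-soluble molecules, which makes them easier to dissolve and to excrete. The sugar comes from an activated donor, a UDP-sugar, and the enzymes sit in the membrane of the endoplasmic reticulum, where they act after oxidising enzymes such as cytochrome P450s. In humans, UGTs conjugate tamoxifen and its hydroxylated metabolites. In *C. elegans* the family is large, and drug conjugates described in nematodes carry glucose. The acceptor molecule of most individual nematode enzymes is not established, so that few members below have a role that can be stated.

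Wild-type N2 animals, synchronised by arrest as L1 larvae, were grown on NGM agar with *E. coli* HT115 as food and either 400 µM citrate, the control (2 libraries), or 400 µM tamoxifen (3 libraries). Both treatments are labelled 48 h and stage L4. The study states that tamoxifen delays growth and that treated animals were collected later than controls. Its stated aim was to keep differences in the speed of development out of the comparison. The shared 48 h label does not show this delay, and drug and time of collection cannot be told apart here. Each library was made from total RNA of many whole animals together. Cel-seq2, the method used, starts reverse transcription at the poly(A) tail, so that a tag marks the 3′ part of an mRNA. Replicates are biological per the study. Its design text speaks of triplicates, while 2 citrate libraries are in the data used here. The p-values measure the spread between these libraries.

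Library size ran from 1782371 to 38276144 tags, and 5 CPM stood for 8.91 tags in the smallest library, tamoxifen replicate 3, and for 191 in the largest, tamoxifen replicate 2. Taking 3 tags as the most that a count of 0 allows, the limit was 1.68 CPM in tamoxifen replicate 3 and 0.0784 CPM in tamoxifen replicate 2, for counting error only. The exact Poisson intervals given for *ugt-31* have limits on both sides and are wider. As whole animals were used, a lower level can mean fewer cells that express a gene or less of its mRNA per cell, which cannot be told apart. Markers of some tissues moved with the groups. The body wall muscle markers summed to 2945 and 2558 CPM in citrate and to between 1351 and 1809 CPM in tamoxifen. The epidermis markers overlapped, with 98.2 and 94.5 CPM in citrate and 90.3 to 118 CPM in tamoxifen. The neuron markers summed to 338 and 362 CPM in citrate and to between 381 and 442 CPM in tamoxifen. A list of 19 oogenesis genes summed to 3973 and 6826 CPM with citrate and to between 12660 and 13230 CPM in the tamoxifen libraries, with none of the 19 at 0 in all libraries. The 8 intestine markers, of which none was at 0 in all libraries, come from the tissue in which many detoxifying enzymes are made. They summed to 3360 and 2567 CPM in citrate and to between 1192 and 1514 CPM in tamoxifen. The gut actin gene *act-5* alone fell, by limma, from 2417 and 1917 CPM in citrate to 477 to 863 CPM in tamoxifen (adjusted p = 0.0029), and the other 7 summed to 944 and 650 CPM in citrate and 583 to 715 CPM in tamoxifen, a comparison chosen after the values were seen. The part of tissue content in the differences below was not tested.

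The 67 genes lie on all 6 chromosomes in Ensembl release 115 (assembly WBcel235), with 42 of them on chromosome V and 12 on chromosome IV. The genome build used by the study is not given in the sources used here, so that positions are those of that annotation, matched by gene ID. All 67 are annotated as protein coding. The longest predicted protein of each gene has from 482 to 557 residues with a median of 529, and its coding sequence spans from 4 to 11 exons. Of the 67, 31 have another *ugt* gene as the next coding gene, in 10 groups of 2 to 7 neighbours, and in 9 of the 10 groups all members lie on the same strand. The other 36 stand alone.

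As a family the *ugt* genes were expressed at a low level. All 67 together summed to 298 and 241 CPM with citrate and to 243, 222 and 310 CPM in tamoxifen replicates 1, 2 and 3. The mean was 269 ± 40.7 CPM in citrate (SD, n = 2) and 258 ± 46.4 CPM in tamoxifen (SD, n = 3), so that the groups overlapped. This is about 0.0222% to 0.0310% of all tags. The 19 genes described in full made up 79.3% to 85.2% of the sum in each library, and the 5 highest, *ugt-49*, *ugt-47*, *ugt-50*, *ugt-23* and *ugt-22*, made up 39.4% to 45.9%. No scaling by gene length was applied, since each mRNA is tagged at its 3′ end, and levels of different genes are compared only on that CPM scale.

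The highest member by mean level was *ugt-49* (V, 10372321 to 10374261). Its level was 29.3 and 23.9 CPM with citrate and 33.0, 29.4 and 30.3 CPM in tamoxifen. Tamoxifen values were the higher ones, but the nearest pair was almost equal, and with quantile normalization, edgeR or DESeq2 the direction turned. For *ugt-47* (V, 10096305 to 10098597) the values were 25.5 and 17.9 CPM in citrate and 28.2, 20.4 and 41.0 CPM in tamoxifen, which overlap. *ugt-50* (X, 12691573 to 12695652) was at 27.5 and 21.1 CPM in citrate and at 10.8, 14.5 and 31.4 CPM in tamoxifen, with 2 tamoxifen libraries below and 1 above the controls. *ugt-23* (X, 9922862 to 9925173) had 21.7 and 18.8 CPM in citrate and 19.6, 15.5 and 22.4 CPM in tamoxifen. Its values spanned the narrowest range, relative to their mean, of these 5 genes apart from *ugt-49*. Their log2 fold changes were 0.21 for *ugt-49*, 0.41 for *ugt-47*, -0.47 for *ugt-50* and -0.08 for *ugt-23*, with limma adjusted p from 0.374 to 0.862. By mean, the first 4 genes ran from 29.2 to 19.6 CPM. The values of each gene overlapped those of the next in this order, while every value of *ugt-49* lay above every value of *ugt-23*.

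The fifth, *ugt-22* (IV, 13639260 to 13644567), is known in *C. elegans* for altering the efficacy of the anthelmintic albendazole. Citrate replicates 1 and 2 had 32.8 and 13.1 CPM, and the tamoxifen libraries had 15.4, 13.9 and 6.17 CPM. In citrate replicate 1 it was the highest of all *ugt* genes, and citrate replicate 2 lay among the tamoxifen values. Its log2 fold change was -0.86 (limma adjusted p = 0.143), while citrate replicate 2 minus citrate replicate 1 came to -1.26 on the same log2 scale. In the annotation *ugt-22* overlaps *srz-29* on the opposite strand. *ugt-47*, *ugt-48*, *ugt-50* and *ugt-64* also overlap a coding gene on the opposite strand, and each of these 5 partners had at most 0.323 CPM in any library.

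**Figure D1:**
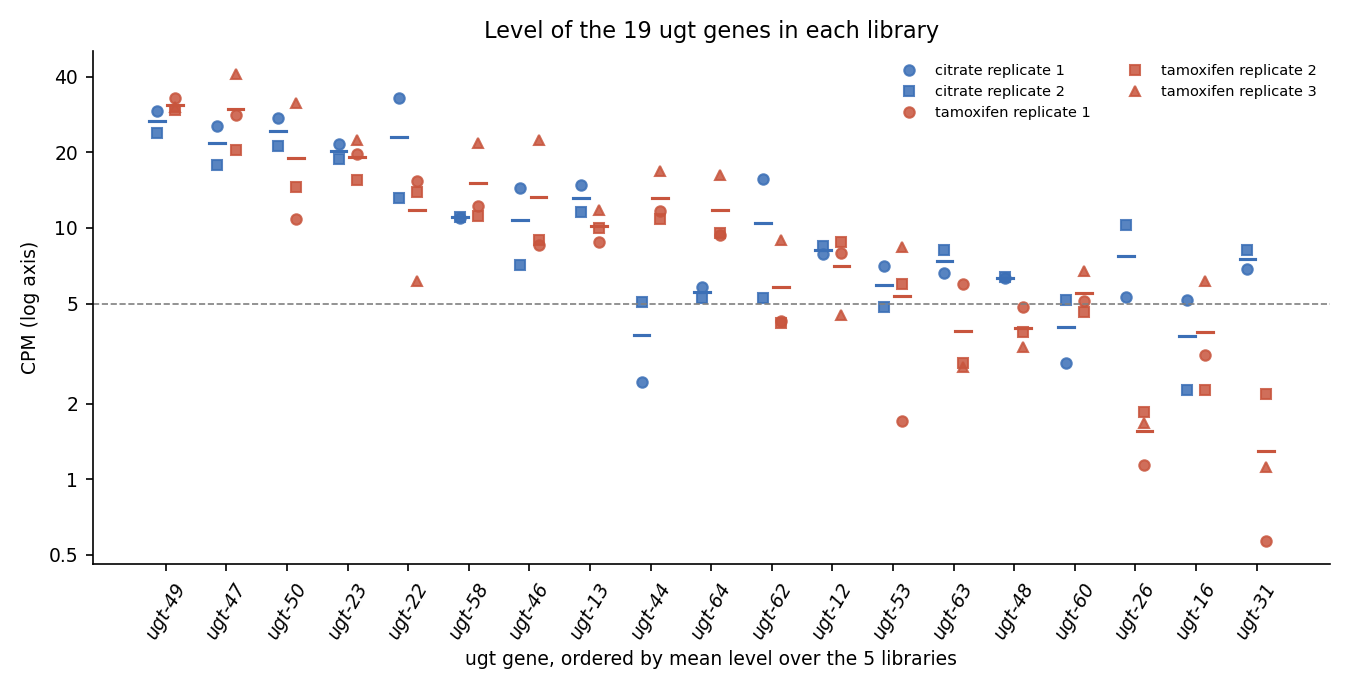
Level of the 19 *ugt* genes described in full. The vertical axis gives CPM on a log scale, each point is 1 library (blue for citrate, red for tamoxifen, shape for replicate), short bars are group means and the dashed line marks 5 CPM. The groups are apart by the most for *ugt-31* and *ugt-26*, where tamoxifen values lie at 0.569 to 2.19 CPM, and for *ugt-44*, where they lie at 10.8 to 16.8 CPM.

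The next comparison asked which *ugt* genes differed between tamoxifen and citrate animals. Each gene's difference was fitted by limma, a linear model that borrows information on variance across genes, on log2(CPM + 1), for all 8325 genes at the same level as the 19 members, with Benjamini-Hochberg adjustment over all of them. With limits of 0.01 on the adjusted p and of 2-fold on the change, 0 of the 19 *ugt* genes were called higher and 0 lower. Among all genes tested, 4.66% were called higher and 2.76% lower. At an unadjusted p under 0.05, 2 members were higher (*ugt-44* and *ugt-64*) and 2 lower (*ugt-31* and *ugt-26*), against 29.7% and 14.9% of all genes. With 0.05 as the limit on the adjusted p, 3 members passed in either direction (*ugt-44*, *ugt-31* and *ugt-26*), against 24.2% of all genes. On tags recovered from the CPM values, DESeq2, the tool named by the study, called *ugt-44* higher and *ugt-31* and *ugt-26* lower at the 0.01 limit, against 5.51% higher and 9.37% lower of all genes. edgeR (quasi-likelihood) called 0 higher and the same 2 genes lower, against 1.78% and 5.12%.

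The groups did not overlap for 8 of the 19 genes, on the CPM scale, with tamoxifen higher for 4 (*ugt-44*, *ugt-64*, *ugt-58* and *ugt-49*) and lower for 4 (*ugt-31*, *ugt-26*, *ugt-63* and *ugt-48*). Of all genes tested, 39.4% had all tamoxifen values above and 20.8% had all below. Over the 19 genes the median difference in log2 was -0.23, against 0.24 over all genes, and it was 0.018 without citrate replicate 1. Scaling by median of ratios moved the median of all genes to 0.07 and that of the 19 to -0.39. *ugt-26*, *ugt-31* and *ugt-48* reached the level tested only through their citrate libraries, the group in which they are high. Their p-values by each tool and the counts over the 19 carry that choice. With 2 against 3 libraries, an exact permutation test of a single gene cannot give a p below 0.1.

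The lowest adjusted p of the family was that of *ugt-31* (I, 2333338 to 2338693, with no other *ugt* gene beside it). It had 6.88 and 8.19 CPM in citrate and 0.569, 2.19 and 1.12 CPM in tamoxifen. Every tamoxifen library was well below both controls, which differed little from each other. The means were 7.54 ± 0.924 CPM (SD, n = 2) and 1.29 ± 0.826 CPM (SD, n = 3), a ratio of 5.82 of citrate over tamoxifen. On the log2 scale tamoxifen minus citrate was -1.95, with a standard error of 0.46 (limma adjusted p = 0.0107), just outside the limit on p. Tamoxifen replicates 1 and 3 rest on 2 tags each, with exact 95% Poisson limits of 0.0690 to 2.06 CPM and 0.136 to 4.05 CPM, and tamoxifen replicate 2 on 84 tags, with limits of 1.75 to 2.72 CPM. All of these upper limits are below the lower limits of the citrate libraries, 5.75 and 6.45 CPM, which cover counting error only. Without tamoxifen replicate 2, *ugt-31* passed, at -2.22 in log2 (limma adjusted p = 0.00718), and without citrate replicate 1 the adjusted p was 0.149.

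*ugt-26* (I, 4721131 to 4723982) is the first of 4 neighbours on the same strand. It had 5.30 and 10.2 CPM in citrate and 1.14, 1.85 and 1.68 CPM in tamoxifen. The 3 tamoxifen values lay close together, and the controls differed by nearly as much as a doubling. Citrate averaged 7.77 ± 3.50 CPM (SD, n = 2) and tamoxifen 1.56 ± 0.374 CPM (SD, n = 3), a ratio of 4.98 of citrate over tamoxifen. The fitted difference was -1.73 in log2 with a standard error of 0.45 (limma adjusted p = 0.0147). Citrate replicate 2 was 0.84 above citrate replicate 1 on the log2 scale, opposite in sign to the tamoxifen difference. Tamoxifen replicates 1 and 3 hold 4 and 3 tags of *ugt-26*. The log2 fold change was -1.31 without citrate replicate 2 (limma adjusted p = 0.180) and -2.15 without citrate replicate 1 (limma adjusted p = 0.111).

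In the other direction, *ugt-44* (IV, 10469741 to 10471899) had 2.44 and 5.07 CPM in citrate and 11.7, 10.8 and 16.8 CPM in tamoxifen. Each tamoxifen library was above the sum of both controls. The mean was 3.75 ± 1.86 CPM in citrate (SD, n = 2) and 13.1 ± 3.25 CPM in tamoxifen (SD, n = 3), 3.49 times the citrate mean. In log2 this gave 1.60 with a standard error of 0.39 (limma adjusted p = 0.0112). The controls differed in the same direction, with citrate replicate 2 above citrate replicate 1 by 0.82, and the log2 fold change was 1.19 against citrate replicate 2 alone (limma adjusted p = 0.172) and 2.01 against citrate replicate 1 alone (limma adjusted p = 0.0132).

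*ugt-64* (V, 3503080 to 3506352) had 5.83 and 5.28 CPM in citrate and 9.39, 9.59 and 16.3 CPM in tamoxifen. Here the controls were close to each other, and 1 tamoxifen library, replicate 3, stood above the other two. The log2 difference was 0.92 (95% interval from 0.13 to 1.71, limma adjusted p = 0.0699), and it was 0.68 without tamoxifen replicate 3 (limma adjusted p = 0.179). *ugt-58* (II, 9584384 to 9586784) is the sole member on chromosome II. Its citrate values, 10.9 and 11.1 CPM, were nearly equal, and its tamoxifen values were 12.2, 11.1 and 21.9 CPM, of which only replicate 3 was far from the controls (0.36 in log2, limma adjusted p = 0.449). *ugt-63* (V, 5108180 to 5110772) had 6.62 and 8.19 CPM in citrate and 5.98, 2.90 and 2.81 CPM in tamoxifen, and tamoxifen minus citrate was -0.83 in log2 (limma adjusted p = 0.136). *ugt-48* (V, 5545669 to 5548062) had 6.30 and 6.36 CPM in citrate and 4.84, 3.84 and 3.37 CPM in tamoxifen, or -0.56 in log2 (limma adjusted p = 0.277).

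The remaining members of the 19 had groups that overlapped. Their log2 fold changes ran from -0.66 for *ugt-62* (limma adjusted p = 0.286) to 0.39 for *ugt-60* (limma adjusted p = 0.472), beside the genes already given. *ugt-62* (III, 4537281 to 4540623) had 15.7 CPM in citrate replicate 1 and 5.28 CPM in citrate replicate 2, the widest gap between the controls among the 19 on the log2 scale, at -1.41. Its tamoxifen values, 4.27, 4.18 and 8.98 CPM, lay around the lower control, and without citrate replicate 1 the log2 fold change was 0.05. *ugt-46* (X, 525928 to 530289) also depended on the library, with 14.4 and 7.11 CPM in citrate and 8.54, 8.99 and 22.4 CPM in tamoxifen, and its log2 fold change of 0.23 was -0.20 without tamoxifen replicate 3. *ugt-13* (V, 4908884 to 4911399) was at 14.8 and 11.5 CPM in citrate and at 8.82 to 11.8 CPM in tamoxifen (-0.34 in log2, limma adjusted p = 0.451). *ugt-12*, *ugt-53*, *ugt-60* and *ugt-16* ranged from 1.71 to 8.80 CPM over all libraries, and their log2 fold changes were -0.23, -0.28, 0.39 and 0.03. The 95% interval included 0 for 15 of the 19 genes and lay within a 2-fold change in both directions for 2, *ugt-23* and *ugt-49*. For the other genes whose interval includes 0, a change of 2-fold in at least 1 direction is within the interval.

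**Figure D2:**
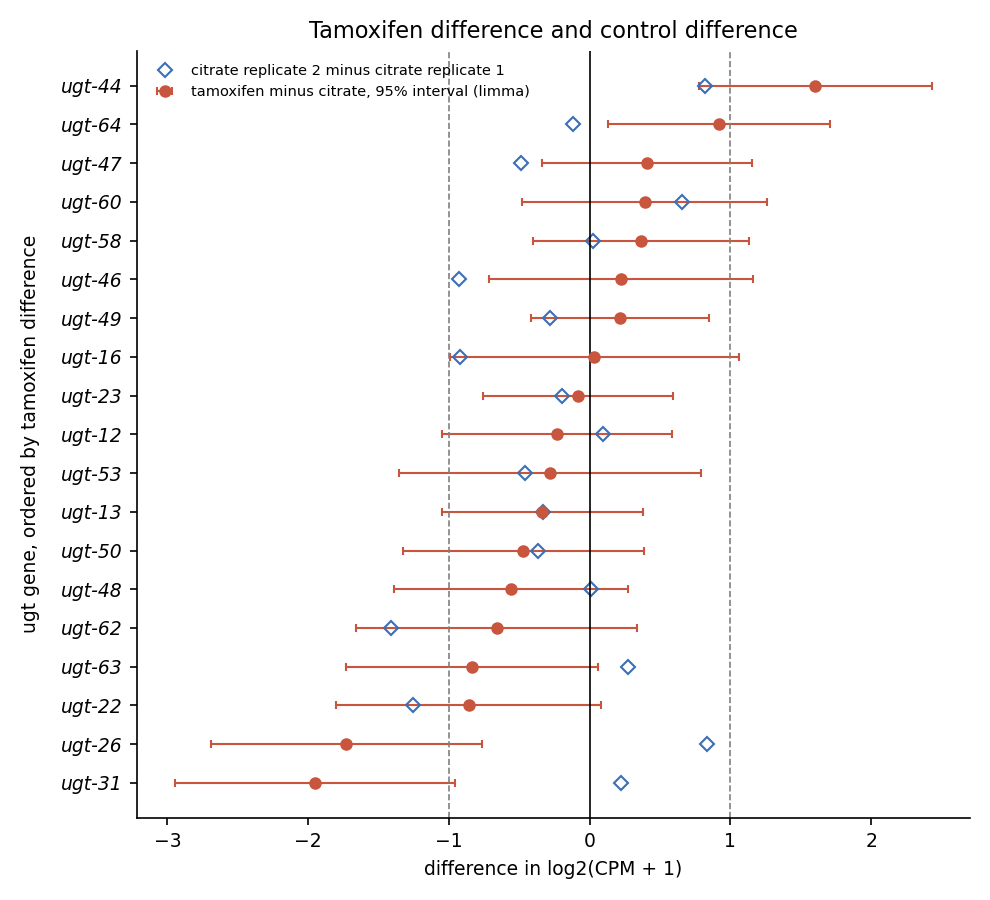
Difference between tamoxifen and citrate in log2(CPM + 1) for the 19 *ugt* genes (red points, with 95% intervals from limma, 3 against 2 libraries). Blue diamonds give citrate replicate 2 minus citrate replicate 1, and dashed lines mark a 2-fold change. The interval is apart from 0 for *ugt-31*, *ugt-26*, *ugt-64* and *ugt-44*, and the control difference is 0.22, 0.84, -0.12 and 0.82 for these genes.

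Between the controls, 8 of the 19 genes were higher and 11 lower in citrate replicate 2, with a median difference of -0.20 on the log2 scale. Over all genes tested the median was 0.13, and 59.7% were higher in citrate replicate 2. Tamoxifen and control differences share the citrate libraries, and there are 2 controls, so that each gene's pair of values is given only side by side. On the list of cell type markers, 5 of 5 germline and oocyte genes had more in citrate replicate 2 than 1, by a median of 1.04 in log2, and had a median log2 fold change of 1.37 with tamoxifen.

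Just inside the level that selects the 19, *ugt-16* had 5.19 CPM in citrate replicate 1 and 6.17 CPM in tamoxifen replicate 3, and 2.26 to 3.13 CPM in the other libraries. *ugt-48* passed through its citrate values alone. Just outside, 6 genes reached 5 CPM in 1 library. *ugt-19* did so in tamoxifen replicate 1, with 2.54 and 3.02 CPM in citrate and 7.40, 1.85 and 1.68 CPM in tamoxifen. *ugt-45* did so in the same library, with 2.17 and 2.80 CPM in citrate and 6.26, 4.31 and 2.81 CPM in tamoxifen. Tamoxifen replicate 3, the smallest library, carried *ugt-6* and *ugt-65* to 5.05 and 6.73 CPM, and their other libraries lay at 1.14 to 3.07 CPM and at 1.83 to 4.15 CPM. *ugt-29* had 3.55 and 8.52 CPM in citrate and 1.14, 2.48 and 3.93 CPM in tamoxifen, and *ugt-1*, given below, had 5.51 CPM in citrate replicate 1. Of the other members, 22 had their highest library between 1 and 5 CPM (*ugt-2*, *ugt-4*, *ugt-5*, *ugt-7*, *ugt-9*, *ugt-11*, *ugt-17*, *ugt-18*, *ugt-21*, *ugt-25*, *ugt-28*, *ugt-30*, *ugt-35*, *ugt-36*, *ugt-39*, *ugt-40*, *ugt-41*, *ugt-43*, *ugt-54*, *ugt-55*, *ugt-61* and *ugt-66*). Another 9 were under 1 CPM in every library with over 3 tags in some (*ugt-8*, *ugt-20*, *ugt-24*, *ugt-27*, *ugt-32*, *ugt-33*, *ugt-37*, *ugt-51* and *ugt-52*), and 7 had at most 3 tags in each (*ugt-3*, *ugt-14*, *ugt-34*, *ugt-56*, *ugt-57*, *ugt-59* and *ugt-67*). No tag was counted for *ugt-10*, *ugt-15*, *ugt-38* and *ugt-42* in any library.

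Among these low members, 18 entered a fit over 11916 genes that reached 1 CPM in 2 or more libraries. None of the 18 passed the limits of 0.01 on the adjusted p and of 2-fold by limma, at which 3.94% of all genes in that fit were called in either direction, while 4 had an unadjusted p under 0.05 and 3 an adjusted p under 0.05 with more than 2-fold, against 17.9% of all genes. The 3 were *ugt-43*, *ugt-1* and *ugt-66*, named here after their values were seen, and the other with a low p was *ugt-29* (-0.99 in log2, limma adjusted p = 0.133). *ugt-43* reached 1 CPM only in tamoxifen libraries, and *ugt-1* and *ugt-66* only in citrate libraries, so that these 3 entered the fit through the group in which they are high, and their p-values and their count carry that choice. *ugt-43* (IV, 10464588 to 10467297) had 0.371 and 0.755 CPM in citrate, 7 tags each, and 4.55, 2.43 and 4.49 CPM in tamoxifen, from 16, 93 and 8 tags. Each tamoxifen library exceeded the controls, and the log2 difference was 1.60 (limma adjusted p = 0.0165). *ugt-1* (V, 10395663 to 10397820) had 5.51 and 1.72 CPM in citrate and 0.285, 0.705 and 0 CPM in tamoxifen, or -1.70 in log2 (limma adjusted p = 0.0205), and its controls differed by -1.26. *ugt-66* (III, 6192116 to 6194580) had 2.91 and 3.56 CPM in citrate and 0.854, 0.679 and 0 CPM in tamoxifen, or -1.53 in log2 (limma adjusted p = 0.0215).

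Neighbouring *ugt* genes were then compared, since tandem copies can share sequence and the counting of the study could split tags between near-identical copies. *ugt-43* and *ugt-44* lie in a row on the same strand of chromosome IV, and *ugt-44* starts 2444 bases after the end of *ugt-43*. In both genes each tamoxifen library exceeded each citrate library, and *ugt-44* was the higher of the pair in every library. The pattern of *ugt-26* was not seen in the members beside it. *ugt-27* and *ugt-28* stayed at or below 1.29 CPM. With at most 7 tags in any library, *ugt-27* is too low to show whether it follows *ugt-26*. *ugt-25* had 1.75 and 1.51 CPM in citrate and 1.42, 1.20 and 1.68 CPM in tamoxifen, which overlap. *ugt-27* starts 83 bases after the end of *ugt-26*. *ugt-2*, which follows *ugt-1*, had 1.38 and 1.62 CPM in citrate and 0.569, 1.54 and 0.561 CPM in tamoxifen, so that its groups overlapped while those of *ugt-1* did not. The group of 7 neighbours on chromosome V (4892588 to 4911399) held 1 well expressed gene, *ugt-13*, and *ugt-11* was the only other one above 2 CPM in any library, at 2.81 CPM in tamoxifen replicate 3. In all, 4 of the 31 genes with a *ugt* neighbour reached the level described in full, 12.9%, against 15 of the 36 that stand alone, 41.7%. These are counts of this family in 1 set of libraries. How many tags neighbours share was not tested.

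**Figure D3:**
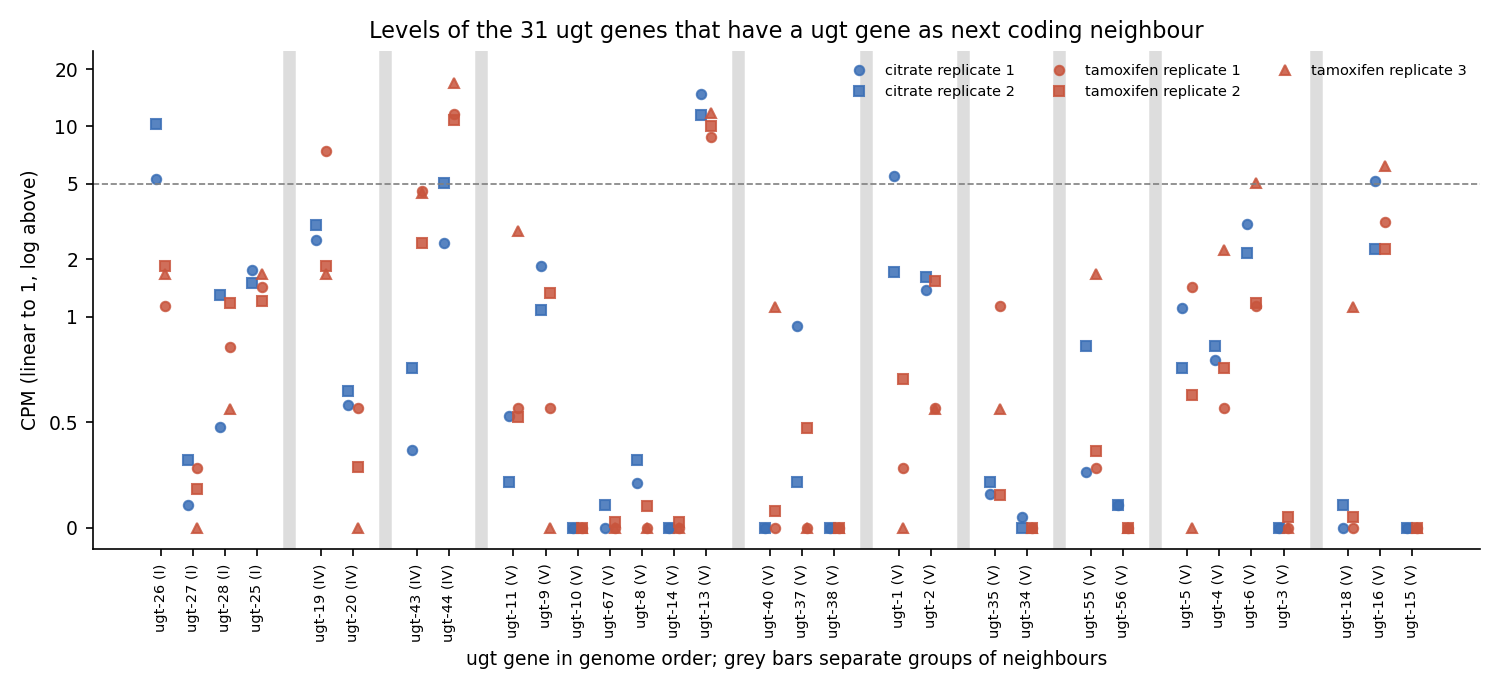
CPM of the 31 *ugt* genes that have a *ugt* gene as their next coding neighbour, in genome order and with the chromosome in parentheses. The vertical axis is linear up to 1 CPM and logarithmic above, points are libraries as named in the legend, grey bars separate the 10 groups and the dashed line marks 5 CPM. Of the 10 groups, 4 hold 1 gene described in full (*ugt-26*, *ugt-44*, *ugt-13* or *ugt-16*), and *ugt-43* and *ugt-44* both have their tamoxifen values above their citrate values.

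Genes of related reactions were counted on lists of symbols. All 4 genes listed under UDP-sugar supply were tested. Their median was 1.05 in log2, and 0 passed the limits by limma, 0 by edgeR and 1 by DESeq2, against 5.51% of all genes called higher by DESeq2. At an unadjusted p under 0.05, 4 were higher, against 29.7% of all genes. *sqv-4*, which encodes UDP-glucose dehydrogenase, the enzyme that makes UDP-glucuronic acid, had 33.0 and 47.3 CPM in citrate and 65.2, 112 and 118 CPM in tamoxifen (log2 fold change 1.25, limma adjusted p = 0.0154). *sqv-7*, a transporter of nucleotide sugars into the Golgi, had 12.1 and 20.8 CPM in citrate and 37.3, 45.5 and 43.2 CPM in tamoxifen (log2 fold change 1.34, limma adjusted p = 0.0107). These 2 genes are named after their values were seen. *sqv* genes serve the synthesis of chondroitin, which embryos and vulva need. Whether any of the 4 genes supplies the sugar donor of the UGTs was not tested. The transcription factor gene *skn-1*, which in *C. elegans* drives genes of detoxification in the intestine and is also loaded into oocytes, rose in tamoxifen. It had 94.2 and 170 CPM in citrate and 279, 336 and 301 CPM in tamoxifen (log2 fold change 1.26, limma adjusted p = 0.00934). Of 8 tested xenobiotic regulators it was the only one past the limits by limma, against 4.66% of all genes called higher. DESeq2 called 1 of the 8 and edgeR 0, against 5.51% and 1.78%. All 8 had a positive log2 fold change, against 60.1% of all genes. At an unadjusted p under 0.05, 4 were higher, against 29.7%.

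Of 11 cytochrome P450 genes tested, 4 rose by limma, which were *cyp-31A5* and *cyp-35B1* to *cyp-35B3*, while edgeR called 3 higher. *cyp-31A5* had 14.0 and 21.3 CPM in citrate and 46.4, 45.7 and 49.9 CPM in tamoxifen. *cyp-35B3* had 0.053 and 0.216 CPM in citrate and 32.4, 22.6 and 58.3 CPM in tamoxifen (limma adjusted p = 3.02e-05), with at most 3 tags in each citrate library. None of the 11 fell by limma, edgeR or DESeq2. At an unadjusted p under 0.05, 8 were higher and 0 lower, and the median of the 11 was 1.20. *cyp-35B1* to *cyp-35B3* and *cyp-34A8* reached the level tested only through tamoxifen libraries, the group in which they are high. Their p-values by each tool, and the counts and the median of the 11, carry that choice. Of all genes, 4.66% were called higher by limma and 1.78% by edgeR. Between the controls, 7 of the 11 P450 genes were higher in citrate replicate 2, and the median difference of the 11 was 0.43 in log2. Of 18 glutathione S-transferase genes, which couple glutathione instead of a sugar, 1 fell by limma, *gst-10*, with 54.7 and 22.1 CPM in citrate and 10.5, 6.35 and 6.73 CPM in tamoxifen (limma adjusted p = 0.00536), and 2 by edgeR and by DESeq2. None rose by these tools. At an unadjusted p under 0.05, 5 of the 18 were lower and 0 higher, against 14.9% and 29.7% of all genes, and the median of the 18 was -0.56. The controls differed in the same direction. Citrate replicate 2 was above citrate replicate 1 for 0 of the 18, and the median difference was -0.68 in log2. Of 7 ABC exporters, which carry drugs and conjugates out of cells, *mrp-4* rose by limma, with 20.8 and 40.2 CPM in citrate and 77.7, 83.5 and 75.2 CPM in tamoxifen (log2 fold change 1.41, limma adjusted p = 0.00918), while edgeR called 0 exporters higher. *pgp-6* fell, from 18.9 and 46.8 CPM in citrate to 5.41, 2.59 and 1.68 CPM in tamoxifen (log2 fold change -2.96, limma adjusted p = 0.0025). Limma and DESeq2 each called 1 of the 7 higher and 1 lower, and edgeR called 1 lower. Over all genes, the shares higher and lower were 4.66% and 2.76% by limma, 5.51% and 9.37% by DESeq2, and 1.78% and 5.12% by edgeR. The median of the 7 was 0.55 with tamoxifen, and 0.66 for citrate replicate 2 minus citrate replicate 1. The sulfotransferase gene *ssu-1* was below the level tested. Against the median of 0.24 over all genes, the median of -0.23 for the 19 *ugt* genes lay between those of the P450 genes and the glutathione S-transferase genes. Each of these medians carries the entry of genes and the control difference given for it, and their order was not tested. These lists were not tested as sets.

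**Figure D4:**
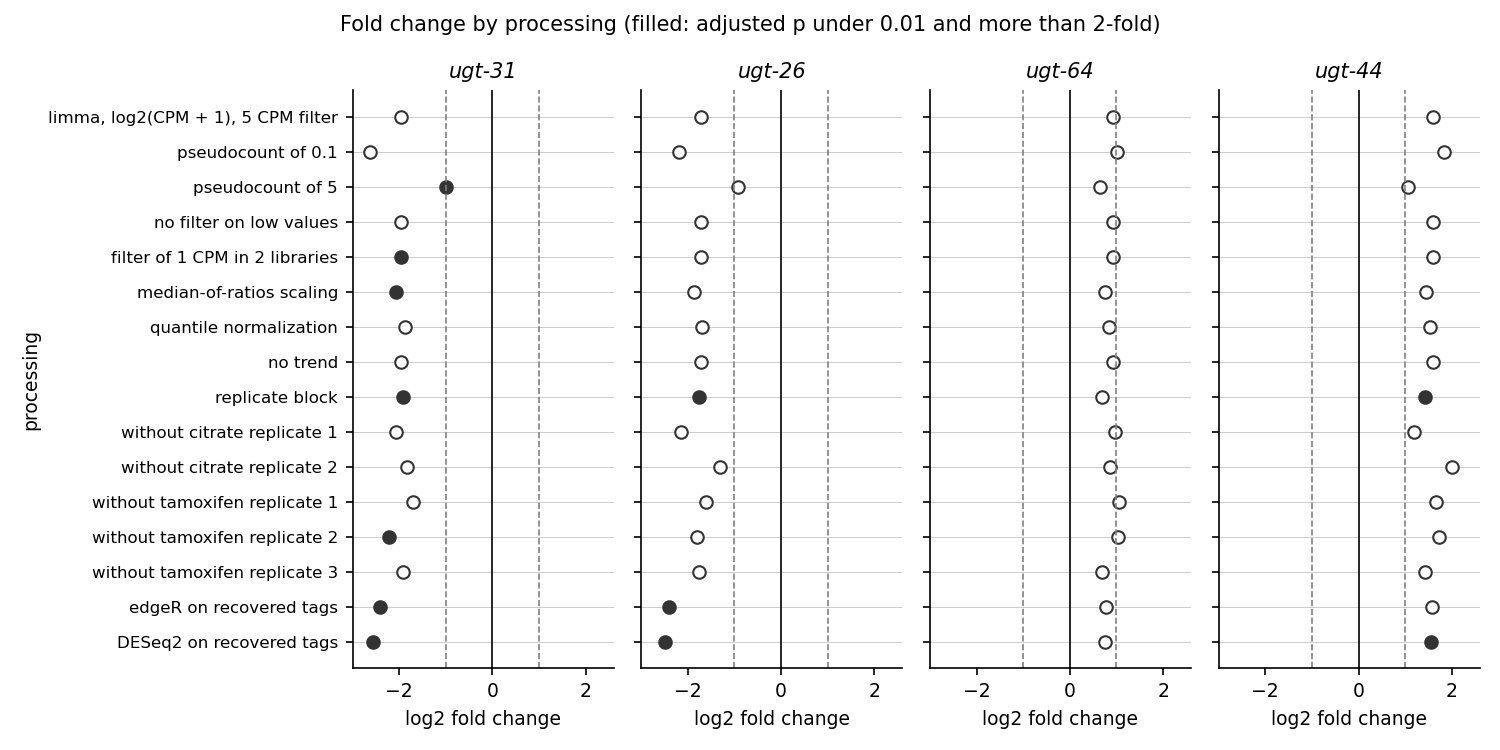
Log2 fold change, tamoxifen over citrate, of *ugt-31*, *ugt-26*, *ugt-64* and *ugt-44* under each way of processing listed on the vertical axis. Filled points pass the limits of 0.01 and 2-fold, and dashed lines mark a 2-fold change. The direction was the same in every fit shown for these 4 genes, and *ugt-31* is lowest, at -2.62, with a pseudocount of 0.1 and nearest to 0 with a pseudocount of 5.

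For the 3 genes near the limit, the call depended on the fit, as the plot of fold change by processing shows. *ugt-31* passed with edgeR (log2 fold change -2.42, adjusted p = 0.00737), with DESeq2 (-2.56, adjusted p = 0.00195) and after median-of-ratios scaling (-2.07, limma adjusted p = 0.00976). *ugt-26* passed with edgeR (-2.42, adjusted p = 0.00601) and DESeq2 (-2.49, adjusted p = 0.00116). *ugt-44* passed with DESeq2 (1.55, adjusted p = 0.00825) and not with edgeR (1.57, adjusted p = 0.0198). *ugt-64* passed in none of them. The p-values of *ugt-31* and *ugt-26* carry the entry of these genes through their citrate libraries.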

How the data were processed

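Per the labels and the paper, Cel-seq2 libraries were sequenced and processed by the authors with a DolphinNext pipeline, and the submitters' processing notes name Trimmomatic 0.32 and STAR. The genome build, the use of strand and the collapsing of molecular identifiers are not given in the sources used here. The authors deposited 1 table named TPM whose values sum to 1000000 per library without gene length, so these deposited values are CPM. They were whole multiples of 1 tag in 100% of cases (tolerance 0.01 tags). Symbols were matched for 25064 of 25393 genes.

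limma 3.58.1 (R 4.3.3; trend) was run on log2(CPM + 1), no covariates, for genes with at least 5 CPM in 2 libraries. Fold changes on this scale understate changes of low genes. Limits for a call were 0.01 on the p adjusted after Benjamini-Hochberg and 2-fold on the change. Named genes are the 19 members, with values in every library for the 5 highest and those with an unadjusted p under 0.05, and listed pathway genes past the limits, with exceptions stated. Members and lists were chosen with earlier results of these data known. edgeR 4.0.16 and DESeq2 1.42.0 were run on recovered tags. Of the tissue lists, those for muscle, neurons, epidermis and sperm had 0 genes called by limma. At an unadjusted p under 0.05, 2 of 4 muscle and 2 of 2 sperm genes tested were lower, against 14.9% of all genes. None of the 4 neuron and 2 epidermis genes tested were. edgeR called 1 muscle and 1 sperm gene lower, and DESeq2 called 1 and 2, against 5.12% and 9.37% of all genes. By limma, 3 of 5 germline, 4 of 6 vitellogenin and 15 of 19 oogenesis genes were called higher. The 3 germline genes, *rme-2*, *puf-5* and *oma-1*, are also among the 15, and *pgl-1* and *glh-1* were not called. Called lower were 5 of 25 major sperm protein genes. Of 87 collagen genes, 7 were called higher and 22 lower. Of all genes, limma called 4.66% higher and 2.76% lower.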

Additional observations from a re-analysis of the deposited data

How the results depend on the processing

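The 18 alternatives were other pseudocounts, filters, scalings, limits and tools, no trend, a replicate block and each library left out, and why values moved was not tested. Over all genes, 388 were called higher and 230 lower by limma. Without a filter 0 and 0 were called (4742 genes at an unadjusted p under 0.05), without a trend 31 and 46, with quantile normalization 221 and 369, with edgeR 148 and 426, and with 0.05 as the limit 1333 and 678. Median-of-ratios scaling gave 143 higher and DESeq2 780 lower. Leaving out 1 library gave 4 to 541 higher and 1 to 157 lower, with both lowest counts without citrate replicate 1, and without tamoxifen replicate 1 the counts were 22 and 64.

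Of the 19 *ugt* genes, 0 were called higher by limma, 1 by DESeq2 and 1 with 0.05 as the limit, and leaving out 1 library gave 0 to 0. Called lower were 0 by limma, 1 with a pseudocount of 5, a filter of 1 CPM or median-of-ratios scaling, 2 by edgeR, 2 by DESeq2 and 2 with 0.05 as the limit, and leaving out 1 library gave 0 to 1, the 1 without tamoxifen replicate 2. Their median was 0.066 with a filter of 20 CPM, which 4 of them passed.

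Same-numbered libraries share only a number: their deviations correlated at 0.123 and 0.323, in 2 pairs. The replicate block rests on 1 residual degree of freedom and leaves tamoxifen replicate 3 without weight. With it 1044 genes were called higher and 599 lower, of the *ugt* genes 1 and 2, and the log2 fold change of *ugt-46* was -0.20, of *ugt-12* 0.028 and of *ugt-16* -0.29.

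The direction held in every fit for 12 of the 19 members and turned in 20 fits of the other 7. *ugt-49* turned to -0.064 with quantile normalization, -0.032 with edgeR and -0.062 with DESeq2. *ugt-46* was at -0.064 with edgeR and -0.057 with DESeq2, and *ugt-16* at -0.12 with median-of-ratios scaling, -0.45 with edgeR and -0.38 with DESeq2. Leaving out 1 library gave -0.20 to 0.056 for *ugt-23*, -0.24 to 0.69 for *ugt-46*, -1.36 to 0.045 for *ugt-62*, -0.39 to 0.028 for *ugt-12*, -0.66 to 0.24 for *ugt-53* and -0.43 to 0.49 for *ugt-16*. None of these passed the limits in any fit. Fits without 1 citrate library assume that the lone control varies like the tamoxifen libraries. Depth limits the low members most in tamoxifen replicate 3, where 1 tag is worth 0.561 CPM.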
